A study of Mus musculus with 21 samples.

Results

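The keratin-associated proteins of hair (Krtap genes) were followed through 8 weeks of UV irradiation of mouse dorsal skin. The members are all probe sets on the Affymetrix whole-genome mouse array whose gene symbol starts with Krtap, which gave 49 of 45101 probe sets. Of these, 6 list several genes and are named by none of them, and the rest belong to 38 genes, 5 of which have 2 probe sets. Such a gene was represented by whichever probe set had the higher mean over all arrays. The animals were female albino hairless mice of the Hos:HR-1 strain, which arrived at 6 weeks of age and were acclimated before the experiment. There were 7 groups of 3 arrays, by their labels: 2 without UV (control week 1 and control week 8) and 5 with UV (named UV week 1, UV week 2, UV week 4, UV week 6 and UV week 8), whereas the Methods give 6 groups of 3 mice. Irradiated mice were exposed 3 times a week to a lamp emitting mainly UVB, starting from 1 minimal erythemal dose (MED), which was 100 mJ/cm2, with weekly steps of 1 MED until 4 MED was reached. UV weeks 2, 4 and 6 have no control of their own week, so that time and UV cannot be told apart there. The sources used here do not say that the arrays of a group come from separate animals, and p-values measure the spread between arrays.

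Keratin-associated proteins form the matrix in which the keratin filaments of the hair shaft are embedded, and they are cross-linked to the hair keratins through disulfide bonds. They fall into high sulfur and ultra-high sulfur proteins, rich in cysteine, and high glycine-tyrosine proteins. Their genes lie in clusters and are transcribed late in the differentiation of the hair cortex and cuticle, in follicles that are growing a shaft (the anagen phase of the hair cycle). Hairless mice carry a mutation of the Hr gene and shed their coat after the first hair cycle, while parts of the follicles remain in the skin. Of the 38 genes, 20 lie on chromosome 16, 10 on chromosome 11, 5 on chromosome 7, 2 on chromosome 10 and 1 on chromosome 1.

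The sequence before the start site is shown for the genes on which the results below turn, because these genes moved together in the arrays. RefSeq promoters (build GRCm38.p6) of 36 of the 38 genes were matched. Each line gives the last 90 bases before the start site, read 5′ to 3′ on the strand of the gene, with the letters TATAAA (the TATA box) in capitals. All 8 genes lie on the minus strand. The stretches are chr16:89487953-89488042 for Krtap8-1, chr16:89010760-89010849 for Krtap22-2, chr16:89047900-89047989 for Krtap6-5, chr16:89571184-89571273 for Krtap11-1, chr16:88962874-88962963 for Krtap16-3, chr11:99628240-99628329 for Krtap4-1, chr11:99993995-99994084 for Krtap17-1 and chr16:88874270-88874359 for Krtap19-2.
Krtap8-1: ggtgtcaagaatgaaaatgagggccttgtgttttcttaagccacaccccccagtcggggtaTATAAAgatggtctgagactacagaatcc
Krtap22-2: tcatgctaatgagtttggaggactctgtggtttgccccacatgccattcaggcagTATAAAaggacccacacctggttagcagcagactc
Krtap6-5: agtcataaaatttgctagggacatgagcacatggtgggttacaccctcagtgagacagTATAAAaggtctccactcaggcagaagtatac
Krtap11-1: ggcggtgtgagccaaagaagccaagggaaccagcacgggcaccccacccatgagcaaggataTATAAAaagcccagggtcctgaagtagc
Krtap16-3: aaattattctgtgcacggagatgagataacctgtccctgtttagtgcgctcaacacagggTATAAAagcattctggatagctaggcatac
Krtap4-1: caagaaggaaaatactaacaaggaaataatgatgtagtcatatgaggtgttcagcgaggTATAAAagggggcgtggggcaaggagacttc
Krtap17-1: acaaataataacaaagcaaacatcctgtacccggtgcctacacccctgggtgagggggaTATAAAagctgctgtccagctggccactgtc
Krtap19-2: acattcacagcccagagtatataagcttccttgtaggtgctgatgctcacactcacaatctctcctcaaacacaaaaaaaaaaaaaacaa

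TATAAA stood 29 bases before the start of Krtap8-1, 35 before Krtap22-2, 32 before Krtap6-5, 28 before Krtap11-1, 30 before Krtap16-3, and 31 before both Krtap4-1 and Krtap17-1. Krtap19-2 is shown as a gene without these letters in the window. Over the 36 promoters, 26 (72.2%) held TATAAA on the gene's strand within the last 60 bases before the start, against 2.87% of all 32851 RefSeq promoters. The median distance was 31 bases and the range 27 to 55. Searched on both strands of the whole 300-base window, TATAAA was found in 80.6% of the Krtap promoters and 13.6% of all promoters. CTTTGA, which LEF and TCF factors bind, was found in 27.8% against 16%, and GACGC, a FOXN1 motif, in 5.56% against 27.2% on the same windows. None of these motifs contains another, and a match describes the letters only.

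Deposited intensities were analysed as log2 values, and all 49 members reached the 20th percentile of an array in at least 1 of the 21 arrays, as did 40540 of all probe sets. Array medians lay between 30.1 and 33.3 on the linear intensity scale, and replicate arrays correlated at 0.962 to 0.996 across probe sets. RNA integrity differed between arrays: the beta-actin 3'/5' log2 ratio, which rises as RNA is degraded, ran from 2.26 to 5.14 and exceeded 4 in 8 arrays. Replicates also differed widely in the Krtap genes themselves, most at UV weeks 4 and 8, so the arrays are given by their number. The tests below used 1 spread per probe set for all 7 groups, so their SEs and adjusted p do not carry this difference. As markers of skin, 7 suprabasal keratinocyte, 6 basal keratinocyte and 6 fibroblast genes were read. Each of them reached the 20th percentile of an array in at least 1 of the 21 arrays. In whole skin, fewer follicle cells and less RNA per cell cannot be told apart.

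The Krtap genes were high at week 1 with and without UV, lower in every other group, and lowest at UV week 4. The mean log2 intensity over the 38 genes was 9.25 ± 0.62 (SD, n = 3 arrays) in control week 1 and 9.34 ± 0.25 in UV week 1. It was 7.34 ± 0.65 in control week 8, 7.23 ± 0.91 in UV week 2 and 6.97 ± 0.29 in UV week 6. UV week 8 had 6.04 ± 1.36 and UV week 4 had 5.29 ± 1.36. Neighbours in this order overlapped in their arrays, except that every array of both week 1 groups lay above every array of the remaining groups. The lowest values came from 3 arrays: array 333 (4.39) and array 331 (4.62) of UV week 4 and array 551 of UV week 8 (4.51). The other array of UV week 4, array 334, had 6.86, and the other arrays of UV week 8 had 6.48 (array 552) and 7.11 (array 555). In arrays 331, 333 and 551 no Krtap gene exceeded a log2 intensity of 8 and 27, 29 and 24 of the 38 were under 5, whereas in array 12 of control week 1 31 exceeded 8.

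**Figure D1:**
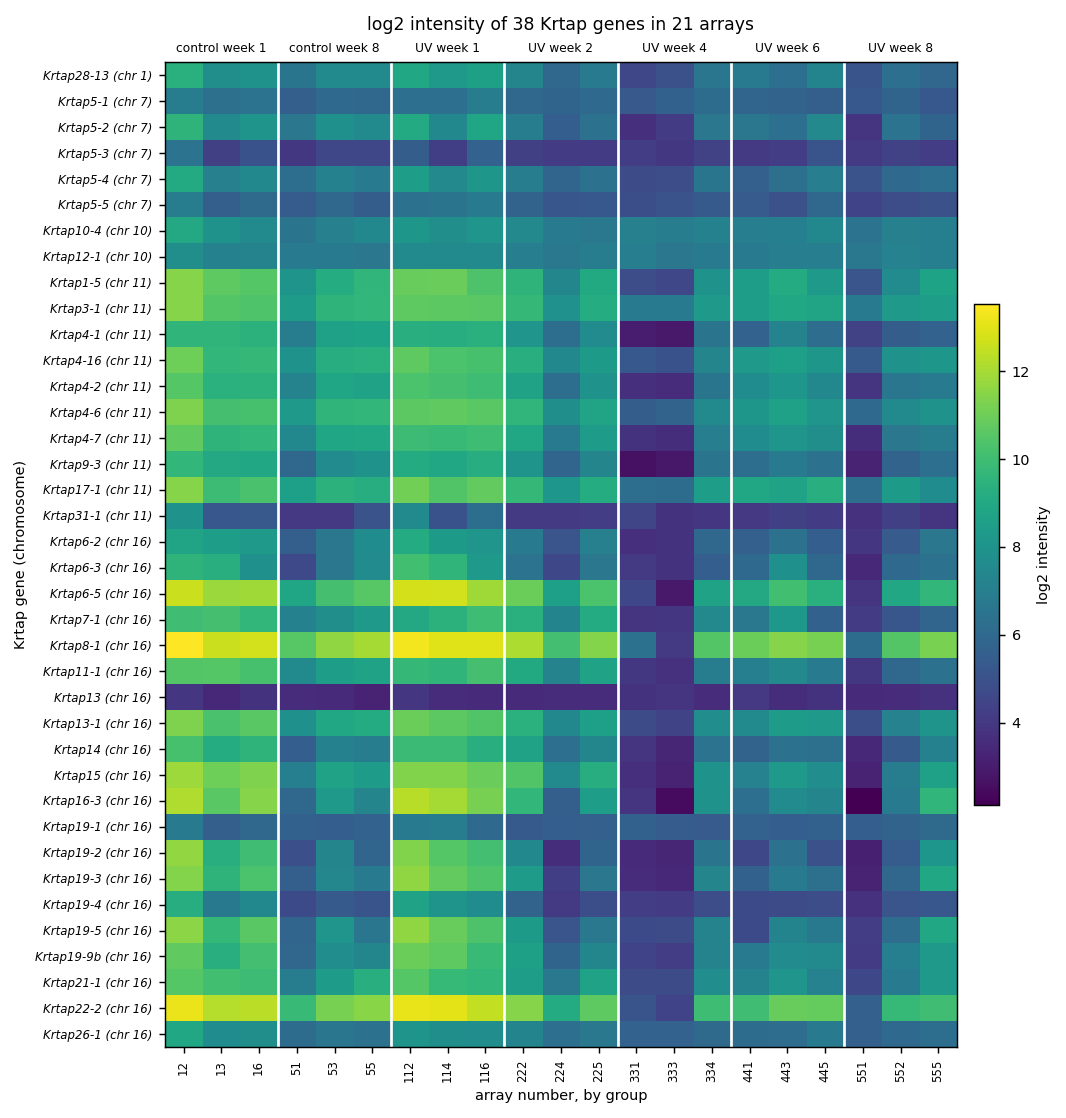
Log2 intensity (colour) of the 38 Krtap genes (rows, ordered by chromosome and family) in the 21 arrays (columns, by group and array number). The arrays of both week 1 groups are bright for most genes, and arrays 331, 333 and 551 are dark for most, with means of 4.62, 4.39 and 4.51.

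After 1 week of UV, no member was called lower, where a call required at least 2-fold and, in limma, p no greater than 0.05 after Benjamini-Hochberg adjustment over all probe sets tested. Over all probe sets 0.0123% were called lower. In counts of members or genes below, those that fell are those called lower. At an unadjusted p under 0.05, 1 member was lower and 2 were higher, where 9.38% and 9.88% of all probe sets were. Without array 116, 1 member was called. For the fits without 1 array, here and below, the share of all probe sets called was not computed. All 3 UV arrays lay under all controls in 2 members (7.85% of all probe sets). The median log2 fold change of the 49 members was 0.13, and 0.07 for all probe sets. At UV week 2 the median of the members was -2.04, with every member below 0 and 43 of 49 having all 3 UV arrays under all 3 arrays of control week 1 (6.48% of all probe sets). In limma 1 member was called lower, against 0.0197% of all probe sets, while 41 passed an unadjusted p of 0.05 (3.37% of all). That member was Krtap19-4, of the high glycine-tyrosine class, named here after its values were seen, at a log2 fold change of -2.94 (SE 0.52, adjusted p = 0.0364). Krtap19-4 was also the 1 probe set of the whole array called lower at UV week 2 against UV week 1 (-3.25, adjusted p = 0.0479), which is 0.00247% of all. The call of UV week 2 rests on single arrays: none was left without array 12, 16, 224 or 225, 1 was left without array 13 and 3 were left without array 222.

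UV week 4 showed the lowest values. Of the 49 members, 39 were called lower than in control week 1 (79.6%, against 0.422% of all probe sets), and none was called higher. They made up 22.8% of the 171 probe sets called lower in this comparison. The median log2 fold change was -4.44, against 0.04 for all probe sets, and 45 members had all 3 UV arrays under all 3 controls (9.22% of all probe sets). Leaving out array 331 left 24 calls and leaving out array 333 left 23, while 40 were made without array 334. The direction of the median stayed negative without each array, between -4.09 and -5.06.

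Krtap8-1, a high glycine-tyrosine protein gene, had log2 intensities of 13.52, 12.61 and 12.74 in arrays 12, 13 and 16 of control week 1 and of 6.40, 4.04 and 10.46 in arrays 331, 333 and 334 of UV week 4. All UV arrays lay under all control arrays, and arrays 331 and 333 lay far under array 334. Its log2 fold change was -5.99 (SE 1.21, adjusted p = 0.0156), and the call ended without array 13, 331 or 333 (adjusted p up to 0.108). Krtap6-5, of the same class, gave 12.61, 11.80 and 11.89 in control week 1 and 4.61, 2.91 and 8.68 in UV week 4, in the same order of arrays. Its log2 fold change was -6.70 (SE 1.26, adjusted p = 0.0102), and without each array in turn it ran from -8.34 to -5.46, with no call without array 331 or 333 (adjusted p up to 0.0781). The value in array 333 was under the 20th percentile of that array (3.46), so the size of the change is uncertain, as it is for Krtap15, Krtap16-3, Krtap19-2, Krtap4-1 and Krtap9-3, which were under the 20th percentile in array 331, array 333 or both. Krtap22-2, also rich in glycine and tyrosine, had 13.19, 12.25 and 12.34 in the controls and 5.08, 4.41 and 9.97 after 4 weeks of UV. It fell by 6.10 on the log2 scale (SE 1.15, adjusted p = 0.0102), and here too the call ended without array 331 or 333 (adjusted p up to 0.0789).

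Among the genes named by rule, Krtap11-1, Krtap4-1, Krtap17-1 and the genes listed together in this paragraph kept their UV week 4 calls without each array in turn. Krtap11-1, a high sulfur protein gene, had 10.46, 10.53 and 10.21 in control week 1 and 3.96, 3.74 and 6.93 in UV week 4. It fell by 5.52 on the log2 scale (SE 0.68, adjusted p = 0.000486), and its adjusted p without each array in turn was at most 0.00627. Krtap4-1, of the ultra-high sulfur class, had 9.58, 9.58 and 9.43 in the controls and 3.02, 2.89 and 6.51 after UV. Its fold change was -5.39 (SE 0.74, adjusted p = 0.000867) and its adjusted p without an array at most 0.0115. Of the other high and ultra-high sulfur genes, Krtap3-1, Krtap1-5, Krtap4-6, Krtap4-16, Krtap13-1, Krtap4-7, Krtap4-2 and Krtap9-3 also fell, as did Krtap7-1 (high glycine-tyrosine), with fold changes between -3.49 (Krtap3-1) and -5.21 (Krtap9-3). Krtap15 fell by 6.46 (SE 1.14, adjusted p = 0.00687), a call that ended without array 333. Krtap17-1, whose human counterpart is expressed in the hair cuticle, fell by 3.59 (SE 0.59, adjusted p = 0.00368).

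**Figure D2:**
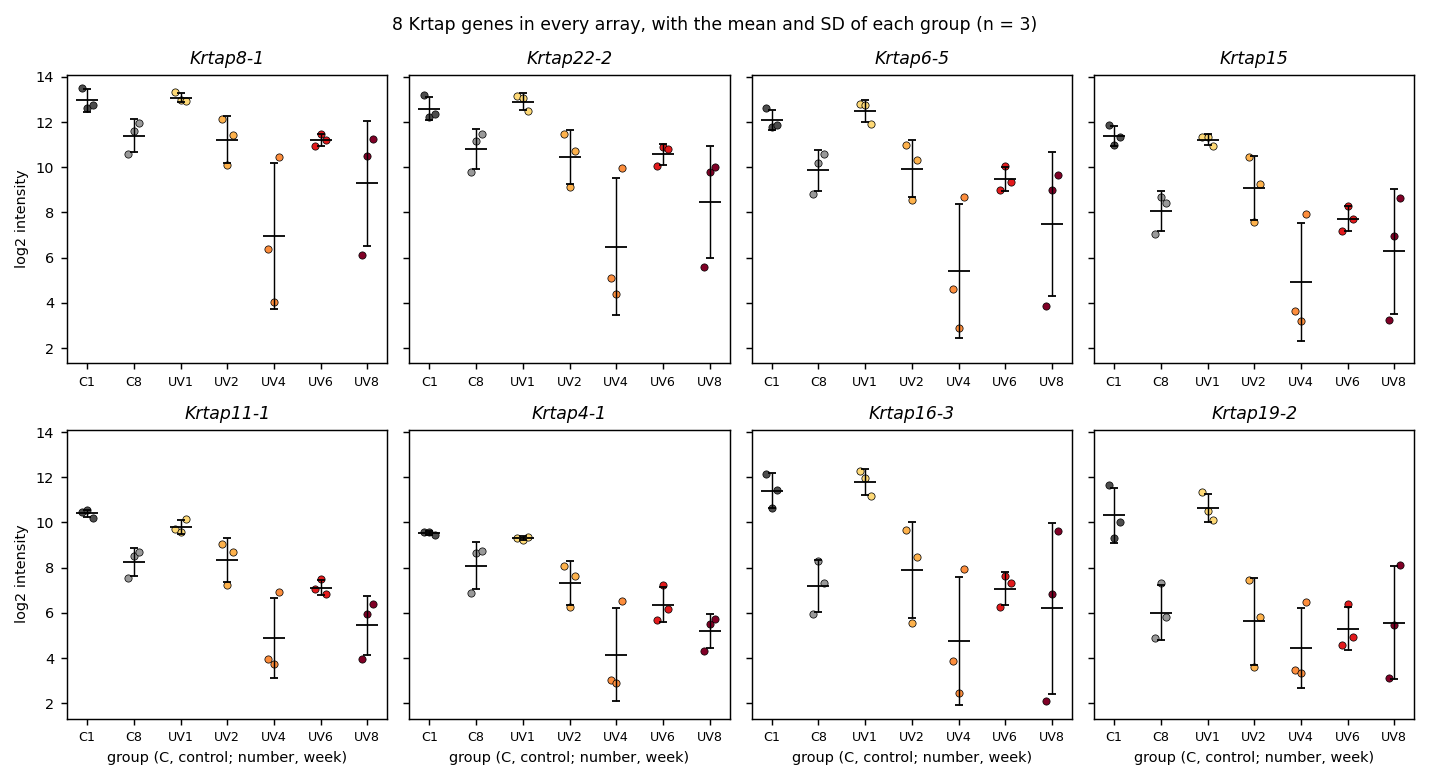
Log2 intensity of 8 Krtap genes in each array (points), with the mean and SD of each group (bars, n = 3), for controls at weeks 1 and 8 (C1, C8) and UV weeks 1 to 8. The UV week 4 points split into 2 low arrays and 1 higher one in every panel, and the week 1 groups lie highest.

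The values of UV week 6 were higher than those of UV week 4 in 48 of 49 members, but no member was called higher in that step, with 25 at an unadjusted p under 0.05 (6.99% of all probe sets). Against control week 1, 25 members were called lower at UV week 6 (1.87% of all probe sets). The median log2 fold change was -2.18 (0.08 for all probe sets), and 42 members had all 3 arrays under the controls (13.6% of all). Leaving out array 12, 13, 441 or 445 gave 15, 13, 12 and 13 calls. At UV week 8, 42 members were called lower than in control week 1 (85.7%, against 2.49% of all probe sets). The median was -3.57, and no member was higher. Fitting only the 2 groups compared made 4 calls among the 49 (0.136% of all probe sets), and 25 at UV week 4 (0.269%). The study's own rule of setting aside genes that differ 1.5-fold between the controls removed 43 members and left 1 call at UV week 8 (2.07% of the probe sets kept) and 0 at UV week 4 (0.0955%). In 44 all 3 arrays lay under the controls (8.33% of all). Without array 551, the lowest of UV week 8, the median was -2.63 and 40 members were called. Between UV weeks 6 and 8 no member was called in limma, and 8 were lower at an unadjusted p under 0.05 (2.16% of all probe sets). Averaged over all UV groups against both controls, 23 members were called lower (0.715% of all probe sets). There were 13, 11 and 6 calls without array 12, 53 or 55. From UV week 2 to UV week 4 none was called, with 30 lower at an unadjusted p under 0.05 (2.77% of all).

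At UV week 8, Krtap11-1 had 3.98, 5.95 and 6.41 in arrays 551, 552 and 555, all under control week 1, and fell by 4.95 on the log2 scale (SE 0.68, adjusted p = 0.000476). Krtap7-1 had 4.08, 5.19 and 5.84, against 10.04, 10.18 and 9.67 in control week 1, a fold change of -4.93 (SE 0.79, adjusted p = 0.00135). Both genes were low in all 3 arrays. Krtap8-1 was not, with 6.14, 10.48 and 11.23, and its fold change of -3.67 (SE 1.21) did not pass (adjusted p = 0.0538). Krtap6-5 (3.86, 8.98 and 9.67) and Krtap22-2 (5.60, 9.78 and 10.03) had the same shape and passed at -4.60 (adjusted p = 0.0271) and -4.12 (adjusted p = 0.0289), calls that ended without array 12, 13 or 16, and for Krtap22-2 also without array 551.

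**Figure D3:**
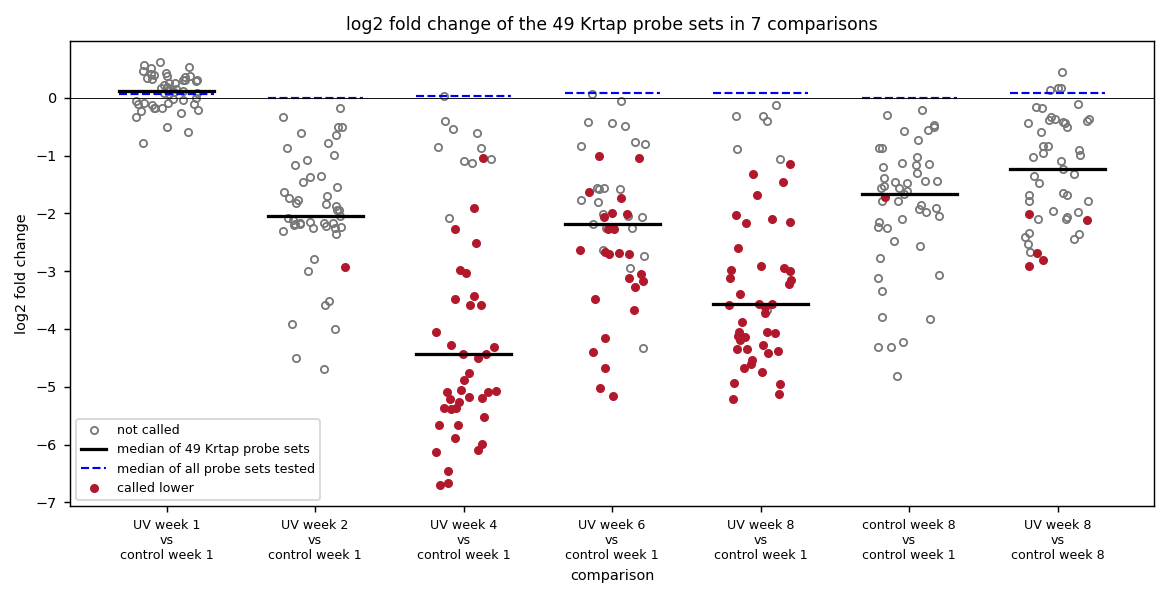
Log2 fold change of the 49 Krtap probe sets (points, red where called lower) in 7 comparisons, with the median of the members (black line) and of all probe sets tested (blue dashed line). The median is 0.13 at UV week 1 and -4.44 at UV week 4, and the right 2 columns give control week 8 against control week 1 (-1.67) and UV week 8 against control week 8 (-1.23).

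The 2 control groups, which had no UV, also differed. In control week 8 all 49 members were lower than in control week 1, with a median log2 fold change of -1.67 (-0.002 for all probe sets), and 41 had all 3 arrays under those of control week 1 (6.6% of all probe sets). At an unadjusted p under 0.05, 34 passed (2.62% of all), and 1 was called (0.0247% of all). This was Krtap26-1, a high sulfur protein gene named after its values were seen, which had 8.91, 7.64 and 7.76 in control week 1 and 6.15, 6.59 and 6.41 in arrays 51, 53 and 55 of control week 8 (-1.72, SE 0.29, adjusted p = 0.03). No call was left without array 12, 51, 53 or 55, and 2 were made without array 13. The stage of the hair cycle in each group was not recorded in the sources used here.

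Against the controls of the same week, 5 members were called lower at UV week 8 (10.2%, against 1.6% of all probe sets) and none higher. By sign, 45 of 49 were lower, with a median of -1.23 (0.09 for all probe sets). At an unadjusted p under 0.05, 22 were lower (12.5% of all probe sets), and 16 had all 3 arrays under all 3 of control week 8 (9.82% of all). The 5 were Krtap11-1, Krtap4-1, Krtap4-6, Krtap7-1 and the probe set listing Krtap4-13 with Gm11554 and Gm11569. Krtap4-1 had 6.89, 8.65 and 8.75 in control week 8 and 4.32, 5.50 and 5.72 in UV week 8 (-2.91, SE 0.74, adjusted p = 0.028). Krtap11-1 had 7.56, 8.50 and 8.70 against 3.98, 5.95 and 6.41 (-2.81, SE 0.68, adjusted p = 0.0245). In both genes the groups did not overlap. The call of Krtap7-1 (-2.69, SE 0.79, adjusted p = 0.0481) ended without any one of the 6 arrays. Leaving out array 53, 55 or 552 left 0 calls, array 555 left 1, array 551 left 3 and array 51 left 4. The week-matched UV effect at week 8 minus that at week 1 was negative for 46 of 49 members, with 11 at an unadjusted p under 0.05 (1.84% of all probe sets) and none called.

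The 6 Krtap19 genes of chromosome 16, high glycine-tyrosine proteins, had a median log2 fold change of -3.43 from control week 1 to control week 8 and of -0.42 from control week 8 to UV week 8. The 5 Krtap4 genes of chromosome 11, ultra-high sulfur proteins, had -1.44 and -2.52. These comparisons share the arrays of control week 8 and the families were not tested against each other. Between the controls, the medians of the whole classes were -2.24 (high glycine-tyrosine), -1.82 (high sulfur) and -1.34 (ultra-high sulfur). Single genes of these classes ran from -4.31 to -0.47, from -3.34 to -0.30 and from -2.04 to -0.56, so the classes overlapped. Krtap19-2 had 11.65, 9.29 and 10.01 in control week 1, 4.89, 7.31 and 5.82 in control week 8 and 3.14, 5.44 and 8.12 in UV week 8. The last 2 groups overlapped, and neither the difference between the controls (-4.31, SE 1.12, adjusted p = 0.304) nor that between UV week 8 and control week 8 (-0.44, adjusted p = 0.815) passed. Krtap16-3, also on chromosome 16, had 12.15, 10.62 and 11.45 in control week 1, 5.97, 8.29 and 7.31 in control week 8 and 2.12, 6.85 and 9.62 in UV week 8. In array 555 both genes were above all arrays of control week 8, while Krtap4-1 and Krtap11-1 in the same array were under them. That array had a beta-actin 3'/5' log2 ratio of 4.90, and within groups the log2 level per unit of this ratio had a slope of 0.68 for Krtap16-3, 0.48 for Krtap19-2, -0.06 for Krtap4-1 and 0.08 for Krtap11-1. The part of RNA quality in this contrast of genes was not tested.

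At UV week 4, where Krtap19-2 had 3.47, 3.36 and 6.49 and Krtap16-3 had 3.88, 2.44 and 7.92, both families were low. All 5 Krtap4 genes and 5 of the 6 Krtap19 genes fell against control week 1 (0.422% of all probe sets), with medians of -5.18 and -4.91. Krtap19-2 fell by 5.88 (SE 1.12, adjusted p = 0.0109), a call that ended without array 331 or 333, and Krtap16-3 by 6.66 (SE 1.47, adjusted p = 0.029), a call that 5 of the 6 arrays were needed for. At UV week 2 the Krtap19 median was -3.42 and that of Krtap4 -1.95, with 1 and 0 genes called (0.0197% of all probe sets).

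**Figure D4:**
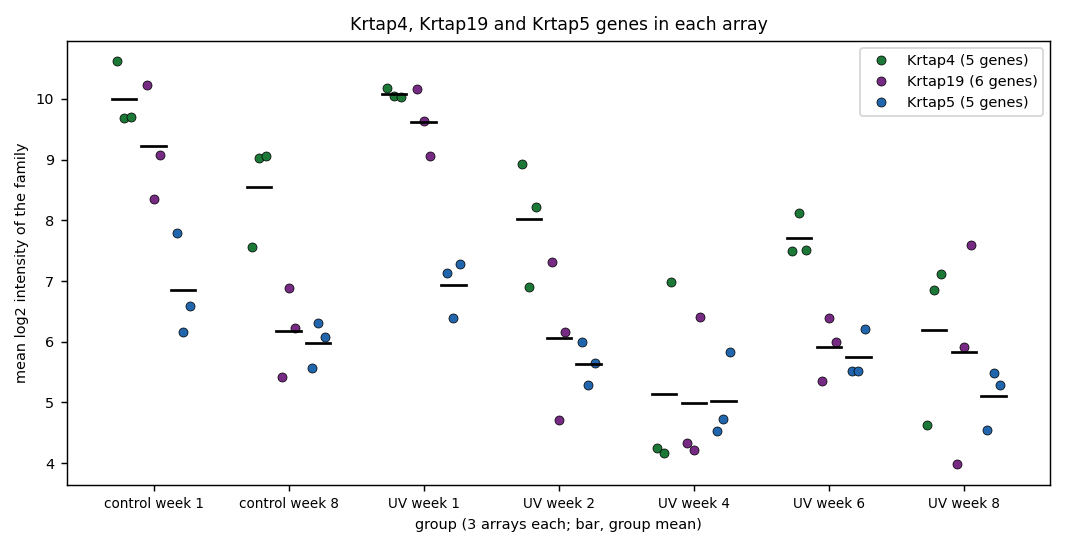
Mean log2 intensity of the Krtap4 (5 genes), Krtap19 (6 genes) and Krtap5 (5 genes) families in each array (points) and group (bars, group means). In control week 8 the Krtap19 arrays lie at 5.42 to 6.89, against 8.36 to 10.23 in control week 1, whereas the Krtap4 arrays lie at 7.55 to 9.07 against 9.68 to 10.63.

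Against control week 1, 0.422% of all probe sets were called lower at UV week 4 and 2.49% at UV week 8. Genes were grouped by protein class, taken from the known class of each family. At UV week 4, 12 of 13 high glycine-tyrosine genes, 7 of 10 high sulfur genes and 9 of 12 ultra-high sulfur genes fell. Their median log2 fold changes were -4.88, -4.28 and -3.94, and the ranges of the classes overlapped. Among the genes named by rule, Krtap8-1, Krtap6-5, Krtap22-2 and Krtap19-2 of the high glycine-tyrosine class lost this call without array 331 or 333. Krtap7-1 of that class and the named ultra-high sulfur genes kept it. So did the named high sulfur genes except Krtap15. Of the 3 genes assigned to no class, Krtap16-3, Krtap28-13 and Krtap31-1, 2 fell (median -2.98). By chromosome, 18 of 20 genes on chromosome 16 and 9 of 10 on chromosome 11 fell at UV week 4, with medians of -5.07 and -4.70. Of the 5 genes on chromosome 7, all Krtap5 genes, 2 fell (median -1.10), and of the 2 on chromosome 10 neither did (median -0.83) at the probe set read for it. The other probe sets of Krtap12-1 on chromosome 10 and Krtap5-1 on chromosome 7 were called lower at UV week 4 (-3.02, adjusted p = 0.00299, and -1.04, adjusted p = 0.0436). Krtap5, Krtap10, Krtap12 and Krtap17 are families whose human members are expressed in the hair cuticle. Together, at 1 probe set per gene, 3 of these 8 genes fell at UV week 4 (median -1.11) and 6 at UV week 8 (median -1.39), against 27 of 30 at both weeks for the remaining genes (medians -5.07 and -3.88). The 8 genes also started lower, with a median log2 level in the controls of 7.20 against 8.83 for the remaining genes. The part of the starting level in this difference was not tested. The mean log2 intensity of the Krtap5 genes was 6.17 to 7.79 in control week 1 and 4.54 to 5.82 at UV week 4.

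At UV week 4, 10 members were not called. Krtap13 lay between 3.20 and 4.01 in all 21 arrays, with a UV week 4 log2 fold change of 0.03 (adjusted p = 0.97). The 20th percentiles of the arrays lay between 3.33 and 3.63, which left little room for a fall to show. The 10 were Krtap13, Krtap10-4, Krtap12-1, Krtap19-1, Krtap31-1, Krtap5-1, Krtap5-3, Krtap5-5, the second probe set of Krtap6-3 and 1 of 2 probe sets listing Krtap3-2 and Krtap3-3. The 10 were named after their values were seen. The probe set of Krtap6-3 among them reached the 20th percentile in 7 of the 21 arrays, and that of Krtap3-2 and Krtap3-3 in 6. A fall could hardly show there either. For Krtap12-1, Krtap19-1 and Krtap5-1 the lack of a call holds for the probe set read for the gene, and the other probe set of each was called. Probe sets of 1 gene could differ: Krtap19-1 at the probe set read for it lay between 5.35 and 6.92, while its other probe set ran from 2.90 to 10.35 and had a log2 fold change of -4.82 between the controls (adjusted p = 0.0665) and fell by 5.66 at UV week 4 (adjusted p = 0.00368). The Krtap genes of a family are close copies of each other, and how far a probe set measures the named copy alone is uncertain.

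The genes moved together across arrays. The correlation of a gene with the mean of the other Krtap genes over the 21 arrays had a median of 0.956 and was over 0.9 for 29 of 38 genes. It was lowest for Krtap13 (-0.01), which lay near the 20th percentile of the arrays. These values are descriptions, and the arrays share their groups, RNA quality and tissue. Outside the Krtap symbols, 17365 genes were ranked by their correlation with the mean of the family. The 10 most alike were Krt31 (0.994), Gm10228 (0.983), Krt34 (0.979), Gm11567 (0.979), Krt35 (0.972), Krt33b (0.97), Bambi (0.966), Krt33a (0.965), Krt28 (0.964) and Krt26 (0.963). Krt31, Krt33a, Krt33b, Krt34 and Krt35 are type I keratins of the hair shaft, Krt26 and Krt28 are keratins of the inner root sheath, and Bambi is a pseudoreceptor of the TGF-beta family. Gm10228 lies between Krtap6-1 and Krtap6-5 on chromosome 16 and Gm11567 between Krtap9-1 and Krtap31-1 on chromosome 11, and both are also listed on member probe sets.

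Other genes of the hair shaft and its sheath were taken from lists drawn up for follicle parts. Of 12 hair shaft keratins tested, 10 fell at UV week 4 against control week 1, as did 8 after 6 weeks and 10 after 8 weeks of UV. Against control week 8, 3 fell at UV week 8. Over all probe sets, 0.422%, 1.87% and 2.49% were called lower at UV weeks 4, 6 and 8 against control week 1. The share was 1.6% at UV week 8 against control week 8 and 0.0247% between the controls. Krt31 lay between 9.81 and 10.85 in the arrays of control week 1 and at 5.59, 5.40 and 7.41 in UV week 4, with the same 2 low arrays as the Krtap genes (-4.09, SE 0.59, adjusted p = 0.00149). Krt33a fell by 6.70 (SE 1.06, adjusted p = 0.0031) and Krt34 by 5.14 (SE 0.73, adjusted p = 0.00114). Of 13 inner root sheath genes, which encode the sheath that moulds the shaft, 11 fell at UV week 4 and 10 at UV week 8, among them Krt25 (-5.74, adjusted p = 0.0138 at UV week 4) and Krt71 (-4.31, adjusted p = 0.00189). At UV week 8 against control week 8, 6 of 13 fell. Between the controls, 1 hair shaft keratin and 1 inner root sheath gene were called lower at week 8, with list medians of -1.61 and -1.25. All hair shaft keratins tested were below 0 there.

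Another list held genes of the hair matrix, the dividing cells from which the shaft forms, most of them regulators. Of 27 genes tested, 6 fell at UV week 4 and 8 at UV week 8 against control week 1, with medians of -0.54 and -0.60. Of all probe sets, 0.422% and 2.49% were called lower there. Against control week 8, 2 of 27 fell at UV week 8 (median -0.34, 1.6% of all probe sets called). In control week 8 against control week 1, 1 was called lower (median -0.25, 0.0247% of all probe sets called). S100a3, a calcium-binding protein of the hair cuticle, had 8.77, 8.72 and 8.56 in control week 1, 4.05, 3.56 and 6.00 in UV week 4 and 4.39, 4.62 and 4.34 in UV week 8. It fell by 4.23 at UV week 8 (SE 0.51, adjusted p = 0.00014) and, without overlap, by 2.64 against control week 8 (SE 0.51, adjusted p = 0.0085). Krt75, a keratin of the companion layer, fell by 3.06 at UV week 8 (SE 0.36, adjusted p = 0.000121). Hoxc13, a transcription factor that activates hair keratin genes, had a log2 fold change of -0.78 (adjusted p = 0.0577) at UV week 4 and fell by 1.25 at UV week 8 (SE 0.19, adjusted p = 0.00102). Its values were -0.37 (adjusted p = 0.222) at UV week 8 against control week 8 and -0.88 (adjusted p = 0.147) between the controls. Msx2, another transcription factor of the matrix, fell by 1.37 at UV week 4 (SE 0.24, adjusted p = 0.0067). Foxn1, which drives differentiation in the hair follicle, was at -0.18 (adjusted p = 0.791) at UV week 4 and 0.28 (adjusted p = 0.343) at UV week 8. Its arrays lay between 3.91 and 4.93, near the 20th percentiles of the arrays (3.33 to 3.63), which left little room for a fall. Lef1, a mediator of Wnt signals, was at -0.67 (adjusted p = 0.107) and -0.54 (adjusted p = 0.0666) at UV weeks 4 and 8.

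Markers of other cell types moved beside the Krtap genes in part. At UV week 4 against control week 1, 0.422% of all probe sets were called lower. In the same comparison 1 of 14 genes of the follicle stem cells and outer root sheath was called lower, and 1 of 7 suprabasal keratinocyte genes. Of 6 basal keratinocyte, 8 dermal papilla, 5 skeletal muscle, 6 fibroblast and 4 adipocyte genes, 0 were called lower. Their median log2 fold changes were -0.13, -0.32, -0.42, -0.68 and -0.81 in that order. Every skeletal muscle, fibroblast and adipocyte gene was below 0. At UV week 8 against control week 1, 2.49% of all probe sets were called lower. Called lower there were 4 of 5 skeletal muscle genes, 3 of 6 fibroblast genes and 2 of 4 adipocyte genes. So were 3 of 14 genes of the follicle stem cells and outer root sheath and 1 of 7 suprabasal keratinocyte genes. Of the basal keratinocyte and dermal papilla genes, 0 of 6 and 0 of 8 were called lower, with medians of -0.62 and -0.15. Every basal keratinocyte gene was below 0. Against control week 8 these counts were 2, 2, 0, 3, 1, 1 and 0 in the same order (1.6% of all probe sets). The summed intensity of the 5 skeletal muscle genes was 46040 to 55930 in control week 1 and 15180 to 25300 in UV week 8, and that of the 12 hair shaft keratins 8242 to 15160 and 502 to 1441. Their part in the Krtap values was not tested.

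The Krtap level was also set beside RNA quality. The 3 arrays with the lowest Krtap means had beta-actin log2 ratios of 3.38 (array 331), 4.05 (array 333) and 2.77 (array 551), inside the range of 2.37 to 4.74 of control week 1. Within groups, the slope of log2 intensity on the beta-actin ratio was positive for 36 of 38 Krtap genes, with a median of 0.33, against 0.045 over all probe sets. With the ratio as a covariate, 12 members were called lower at UV week 8 than in control week 8 (1.17% of all probe sets in that fit). Without it 5 were. Between the controls the count was 4 (0.0666% of all) in place of 1. Against control week 1 the same fit called 42 members lower after 4 weeks of UV (0.641% of all), 36 after 6 weeks (1.66%) and 45 after 8 weeks (1.62%). Leaving out the 8 arrays with a ratio above 4 gave 35 calls at UV week 4 (1.49% of all), with 2 arrays left on each side. It left UV week 6 and UV week 8 with 1 array each, so that no replicate of their own stood behind a count.

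**Figure D5:**
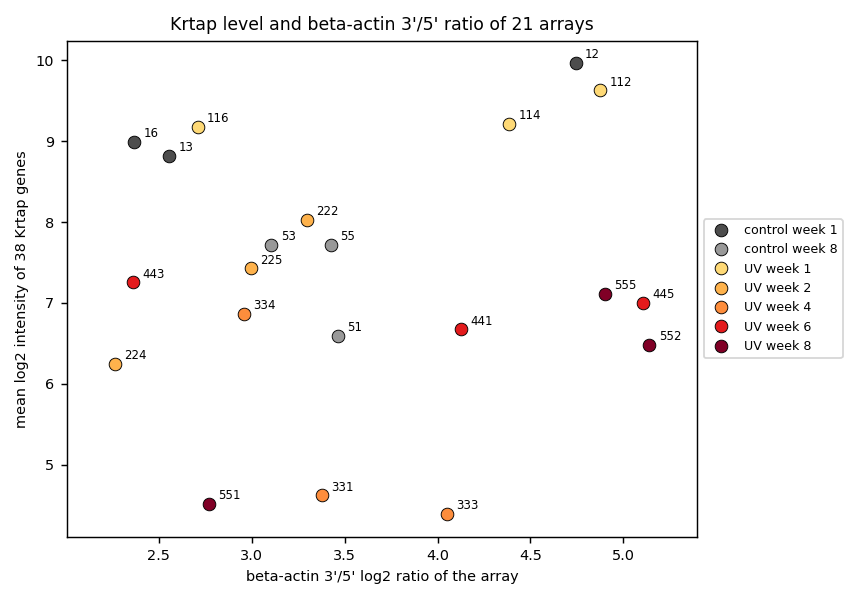
Mean log2 intensity of the 38 Krtap genes (vertical axis) against the beta-actin 3'/5' log2 ratio (horizontal axis) of the 21 arrays, coloured by group and numbered. The low arrays 331, 333 and 551 have ratios of 3.38, 4.05 and 2.77, and high Krtap means occur at ratios from 2.37 to 4.88.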

How the data were processed

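Dorsal skin RNA of 21 arrays in 7 groups of 3 was measured on the Affymetrix whole-genome mouse array. The values were deposited as linear intensities (4.352 to 35056), normalized by the authors. The Methods name the MAS5 algorithm and the submitters' processing notes name RMA, so which one made the values is not settled. An array's precision has no read depth; 3 arrays a group limit it.

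Intensities were floored at 1 and taken as log2. The 64 control probe sets were left out, and probe sets reaching the 20th percentile of their array in at least 1 array were tested with limma 3.58.1 (R 4.3.3), with 1 mean per group over all 21 arrays (14 residual df) and Benjamini-Hochberg adjustment over all 40540. A call needed at least 2-fold, with adjusted p no greater than 0.05. The fit was also run on simulated data of 40540 probe sets for UV week 4 against control week 1. There, 94% of changes of 1.5 and 99% of changes of 3 on the log2 scale were recovered. These shares describe the simulated probe sets and not the Krtap members, whose replicates differed widely. In the measured data, the 49 members had a median log2 fold change of -2.04 at UV week 2 against control week 1, and 1 was called lower. How many changes of a given size would be recovered among the Krtap members was not tested.

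Genes were named by rule: the 12 highest in the controls, the 12 with the largest change of the UV mean against the control mean, the regulators Hoxc13, Foxn1, Lef1 and Msx2, the 2 largest of each hair list and the 10 genes most alike across arrays. A clause on the 2 highest genes of each protein class was not applied, since classes from amino acid composition could not be computed; the known class of each family was used. The members and lists were chosen with earlier results of these data known. Alternatives were the filter, quantile normalization, probe set choice, the groups fitted, RNA quality as a covariate, the control baseline and leaving out each array. Probe set symbols came from the platform annotation, with 32317 probe sets holding 1 symbol, 853 several and 7370 none. Figures were drawn with matplotlib 3.10.9 in Python 3.11.15.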

Additional observations from a re-analysis of the deposited data

How the results depend on the processing

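The 85 pairs of a named gene and a comparison were recomputed because they were called. No direction changed where an alternative gave a value (0 reversed). The filters, probe set choices, minimum fold, groups fitted and control exclusion leave a gene's log2 fold change unaltered, so they could not reverse it. Fitting only the groups compared ended 31 of 67 calls, and quantile normalization ended 7 of 85. The study's rule on the controls set aside all 60 pairs recomputed under it. Quantile normalization gave 0 members called lower at UV week 2, 2 at UV week 8 against control week 8 and 0 in control week 8 against control week 1. With 1 probe set per gene the last count was 2. Fitting only the groups compared gave 0 at UV week 2, 25 at UV week 4, 4 at UV week 8 against control week 1, 0 against control week 8 and 2 between the controls, with fewer residual degrees of freedom by construction. The beta-actin ratio as a covariate gave 3 at UV week 2, 12 at UV week 8 against control week 8 and 4 between the controls, and the Gapdh ratio gave 9 and 3 for the last pair. Without arrays of a beta-actin ratio above 4, UV week 6 was array 443 alone and UV week 8 array 551 alone (its lowest), with the spread taken from the remaining groups, and counts were 2 at UV week 2, 4 at UV week 6, 0 at UV week 8 against control week 8 and 14 for the UV mean against the control mean, and the values of that 1 array at UV week 8 had medians of -5.12 against control week 1 and -2.87 against control week 8. With the mean of both controls as baseline, UV week 2 had 0 calls and a median of -1.06, UV week 4 a median of -3.26, UV week 6 10 calls and UV week 8 a median of -2.42. The study's rule of leaving out probe sets that differ 1.5-fold between the controls removed 43 of the 49 members and left 0, 0, 0 and 1 calls at UV weeks 2, 4, 6 and 8. Except where the construction of the alternative shows it, the cause was not tested. For counts in this section whose share of all probe sets is not given here or above, that share was not computed.

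Without each array in turn, the members called lower than in control week 1 numbered 0 to 1 at UV week 1 and 0 to 3 at UV week 2. There were 23 to 40 at UV week 4, 12 to 19 at UV week 6, 34 to 41 at UV week 8 and 0 to 2 in control week 8. They numbered 0 to 4 at UV week 8 against control week 8 and 6 to 29 for the UV mean against the control mean. No paired analysis was possible because the groups share no array numbers. Signal near the background limits the lowest arrays, where 8 (array 333), 5 (array 551) and 3 (array 331) of the 38 genes were under the 20th percentile.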
